A study of Mus musculus with 34 samples.

Results

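The nuclear-encoded subunits of the mitochondrial respiratory chain were followed in the mouse left ventricle after myocardial infarction (MI). Members were chosen by symbol alone, as genes named Ndufa, Ndufb, Ndufc, Ndufs or Ndufv with a number, Sdha to Sdhd, Cyc1, and every gene whose symbol begins with Uqcr, with Cox4 to Cox8 or with Atp5. In a first table of 10 libraries 83 of 14552 listed genes carried such a name, and 82 of these had a mean of at least 1 CPM. CPM is the counts-per-library-size unit of the deposited values, whose sum over the listed genes still differed between libraries. In a second table of 24 libraries 84 of 17406 listed genes did, and the same 82 passed. Cox6b2 failed in both tables and Cox7b2 was listed in the second only, where it failed. By name, 37 members belong to complex I, 4 to complex II, 9 to complex III, 15 to complex IV and 17 to complex V.

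The respiratory chain sits in the inner mitochondrial membrane and provides most of the ATP of a beating heart. Complex I (NADH dehydrogenase) and complex II (succinate dehydrogenase) feed electrons to ubiquinone, complex III (cytochrome bc1) passes them to cytochrome c, complex IV (cytochrome c oxidase) hands them to oxygen, and complex V (ATP synthase) uses the resulting proton gradient to make ATP. A few core subunits of complexes I, III, IV and V are encoded in mitochondrial DNA, of which neither table lists a gene, so only the nuclear contribution is described. Some names do not match the role. Ndufa4 encodes a protein now placed in complex IV, Atp5sl (also Dmac2) is an assembly factor of complex I, and Atp5s is a coupling factor that is no structural ATP synthase subunit, yet each is kept where its symbol puts it.

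All mice were of the CFW stock, the tissue was labelled heart left ventricle, and MI was made by tying off the left anterior descending coronary artery for good. The first table holds 3 sham mice (letters D, H and I), 3 uninjected mice 4 h post-MI (C, D and E) and 4 uninjected mice 24 h post-MI (C, D, G and H). The first 3 are called sham operated in the paper, whereas their labels give no operation. The second table holds 2 shams, labelled as sham operation at 4 h, and hearts injected at the infarct border with a modified mRNA (modRNA) immediately after ligation, either AC or luciferase (Luc). The labels do not spell out AC. There were 4 AC and 4 Luc libraries at 4 h, 3 and 3 at 24 h, and 4 and 4 at 48 h. No uninjected infarct stands in the second table, so a difference between Luc hearts and shams holds infarct, injection and time together. Nothing given with the second table says that its libraries came from separate mice, so the p-values measure only the spread between them.

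The first table rests on an estimated 12553519 to 18952669 reads on the listed genes per library, which are not all reads of a library. The depth of the second is unknown. The 2 tables were normalized separately and were tested separately with limma on log2(CPM + 1), and q is the p-value adjusted by Benjamini-Hochberg over all 12487 or 12555 genes tested. A member was called when q was under 0.05. All 12 cardiomyocyte markers (such as Myh6 and Tnnt2) were detected in every library, with a summed level of 29810 to 76240 CPM in the first table and 35560 to 109000 CPM in the second. The tissue was measured in bulk, in which fewer cells of a type and less RNA per cell cannot be told apart. The 82 members together took 5.10% to 5.53% of the listed expression in shams of the first table, 5.74% to 5.97% at 4 h and 3.65% to 4.27% at 24 h post-MI. In the second table the shams differed from each other, with 7.42% and 5.71%, and at 4 h the library AC 2 stood low with 5.62% beside 6.998% to 8.18% in the other AC libraries.

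Several respiratory chain genes are classical targets of nuclear respiratory factor 1 (NRF1), whose core site is the palindrome CGCATGCG. A RefSeq promoter (GRCm38.p6) was found for 67 of the 82 members, 3 of them through a synonym. Those without a promoter include Atp5a1, Cox4i1, Cox4i2, Cox6a2, Cox6c, Cyc1, Ndufa2, Ndufa4l2, Ndufb9, Ndufs1, Sdhc, Uqcrb, Uqcrc2 and Uqcrq. In the 250 bases before the start, the NRF1 site occurred in 7 of 73 member promoters (9.59%) and in 509 of all 32851 promoters (1.55%). The 7 stretches are shown because they let members with the same site be compared in how they moved, with 30 bases each on the strand of the gene and the site in capitals:
Ndufa8 (chr2:36049339-36049368, minus strand): gcgcttgcgcgtcgctggagaCGCATGCGc
Ndufa11 (chr17:56717692-56717721, plus strand): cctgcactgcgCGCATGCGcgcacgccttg
Cox6a1 (chr5:115349101-115349130, minus strand): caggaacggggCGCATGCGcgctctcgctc
Atp5g2 (chr15:102671070-102671099, minus strand): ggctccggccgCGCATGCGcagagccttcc
Atp5j (chr16:84835105-84835134, minus strand): aggccagaataCGCATGCGtacagtgcagt
Atp5k (chr5:108434430-108434459, minus strand): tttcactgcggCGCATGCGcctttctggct
Atp5l (chr9:44920963-44920992, minus strand): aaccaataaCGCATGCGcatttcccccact

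The site began between 9 bases (Ndufa8) and 241 bases (Atp5l) before the start. For Atp5j that start is an inner one, so its stretch lies inside the gene as listed (chr16:84827871-84835625). Further motifs were searched on both strands in the same way. CCGGAAGT, a site of ETS factors such as GABP, was held by 4.11% of member and 2.88% of all promoters (Atp5h, Uqcr11 and Uqcrh). TCAAGGTCA, a site of estrogen-related receptors, was held by 1.37% and 0.387% (Atp5g3), and AAGATGGCG, a YY1 site, by 2.74% and 0.606% (Atp5j and Atp5sl). A match is a run of letters and says nothing of binding. The 7 members with the NRF1 site did not move together at 24 h post-MI in uninjected hearts. Ndufa8, an accessory subunit of complex I, fell by 0.65 on the log2 scale (q = 0.00071), Cox6a1 rose by 0.45 (q = 0.0041), and the other 5 lay between −0.29 and 0.05 and were not called.

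To ask whether respiratory chain transcripts move early after occlusion, uninjected hearts 4 h post-MI were compared with shams. None of the 82 members was called by limma, against 2.37% of all genes. At an unadjusted p under 0.05 there were 19 members, and the lowest q was 0.18. The members nevertheless leaned one way, with 78 of 82 log2 fold changes above 0, a median of 0.21 (−0.03 over all genes tested) and a range of −0.22 to 0.90. The top of that range is Ndufs5, which had only 0.04 to 5.64 CPM per library and whose reads may be shared with near-identical copies, so its value is uncertain. Limma with array weights, which lets noisy libraries count less, called 30 members, all higher, beside 8.25% of all genes called higher. Of 5 erythrocyte markers 4 were called higher at 4 h, with a summed level of 161 to 247 CPM in shams and 435 to 751 CPM at 4 h, and their part in the members' values was not tested.

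By 24 h 67 of 82 log2 fold changes against sham lay under 0, where the lean at 4 h had been above 0 but without a call. At 24 h post-MI 33 of 82 members were called against sham (40.2%), 31 lower and 2 higher, with a median log2 fold change of −0.24 (0.04 over all genes tested). Of all genes 66% were called in either direction. Called lower were 30.3% of all genes beside 31 of the 82 members, and called higher were 35.6% beside 2 of the 82. The share of members that fell thus lay near that of all genes, whereas the share that rose lay under it. Of complex I 15 of 37 members fell and 1 rose (median −0.19), of complex II 3 of 4 fell (−0.61), of complex III 3 of 9 fell (−0.16), of complex IV 3 of 15 fell and 1 rose (−0.10), and of complex V 7 of 17 fell (−0.29). These differences between complexes were not tested, since members are not replicates. Without sham D, the sham with the highest member levels, 20 members were called.

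**Figure D1:**
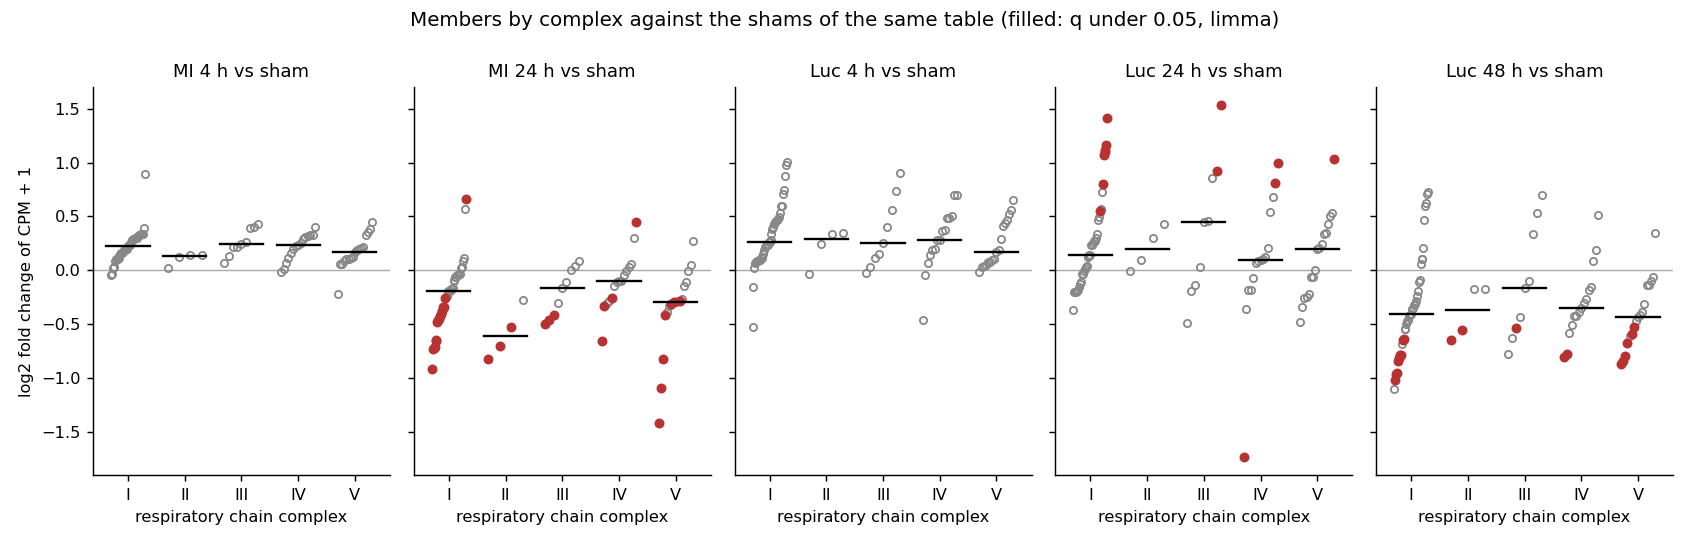
Each circle is 1 of the 82 members, placed by complex (x axis) and by its log2 fold change of CPM + 1 against the shams of the same table (y axis), with filled circles for members called by limma and a bar at the median of the complex. At 24 h post-MI in uninjected hearts (second panel) most filled circles lie below 0, whereas in Luc hearts 12 of 13 lie above 0 at 24 h and all 20 lie below 0 at 48 h.

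Within complex I the core subunits, which carry the flavin and iron-sulfur clusters or the quinone site, gave 6 of 7 called lower (median −0.45), and the accessory ones gave 9 of 30 (−0.17), a difference that was not tested. Ndufs1, the 75 kDa subunit that holds iron-sulfur clusters, measured 682, 732 and 653 CPM in shams D, H and I, 688, 644 and 792 CPM at 4 h in C, D and E, and 281, 370.5, 487 and 347 CPM at 24 h in C, D, G and H. Every 24 h library lay under every sham and every 4 h library, and the mean fell to 0.54 of sham (log2 fold change −0.92 ± 0.17 SE, q = 0.00052). Ndufs7, which carries the last iron-sulfur cluster before the quinone, measured 222, 212 and 179 CPM in shams and 100.3, 126, 146 and 123 CPM at 24 h, again with no overlap (−0.73 ± 0.13, q = 0.00041). Ndufv1, which binds NADH, fell to 0.74 of sham (q = 0.0075). Ndufs8 and Ndufs3 also fell (−0.43 and −0.34), though both lost the call without sham D (q = 0.054 and 0.065), and Ndufs3 also without sham H (q = 0.057). Ndufv2 had −0.25 and was not called (q = 0.12). Among the accessory subunits the largest falls were those of Ndufb10 (−0.71), Ndufa10 (−0.66) and Ndufa8 (−0.65).

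Complex II had the lowest median of the 5. Sdha, the flavoprotein that oxidizes succinate, measured 1010, 1195 and 1002 CPM in shams D, H and I, 1034, 1018 and 1210 CPM at 4 h, and 472, 635.5, 766 and 575 CPM at 24 h in C, D, G and H. The 24 h libraries did not overlap the others, and the mean was 0.57 of sham (−0.82 ± 0.16, q = 0.001). The membrane anchors Sdhd and Sdhc fell by 0.70 (q = 0.00091) and 0.52 (q = 0.0021) on the log2 scale. Sdhb, the iron-sulfur subunit, had −0.27 with q = 0.065. In complex III the Rieske iron-sulfur protein Uqcrfs1 measured 620, 564 and 498 CPM in shams and 324, 426, 472 and 371 CPM at 24 h, all lower, and fell to 0.71 of sham (q = 0.0091). The core proteins Uqcrc1 and Uqcrc2 fell by 0.41 and 0.46, of which Uqcrc1 lost the call without sham D or H (q = 0.058 and 0.073), and cytochrome c1 (Cyc1) had −0.31 with q = 0.077.

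In complex V, Atp5a1, the alpha subunit of the catalytic F1 head, measured 4039, 4380 and 3774 CPM in shams D, H and I, 4140, 4060 and 4515 CPM at 4 h, and 1737, 2452, 2951 and 2207 CPM at 24 h. It was among the most abundant members and its 24 h libraries lay under all others (0.57 of sham, −0.82 ± 0.19, q = 0.0027). Its catalytic partner, the beta subunit Atp5b, measured 4122, 4313 and 3697 CPM in shams and 2656, 3195, 3507 and 3073 CPM at 24 h. These groups did not overlap either, but the difference missed the threshold (−0.38, q = 0.056). Of the peripheral stalk, which holds the head still, 3 of 4 members fell (median −0.30), and of the c ring, the turning rotor, 1 of 3 did. The largest falls of all members were those of the symbols that are not structural subunits. Atp5s measured 17.5, 16.4 and 14.7 CPM in shams and 3.57, 5.07, 8.58 and 5.48 CPM at 24 h (−1.41 ± 0.21, q = 0.00012), and Atp5sl 35.3, 34.5 and 29.3 CPM in shams and 12.9, 15.8, 19.98 and 12.2 CPM at 24 h (−1.09 ± 0.15, q = 7e-05). Neither overlapped with sham.

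**Figure D2:**
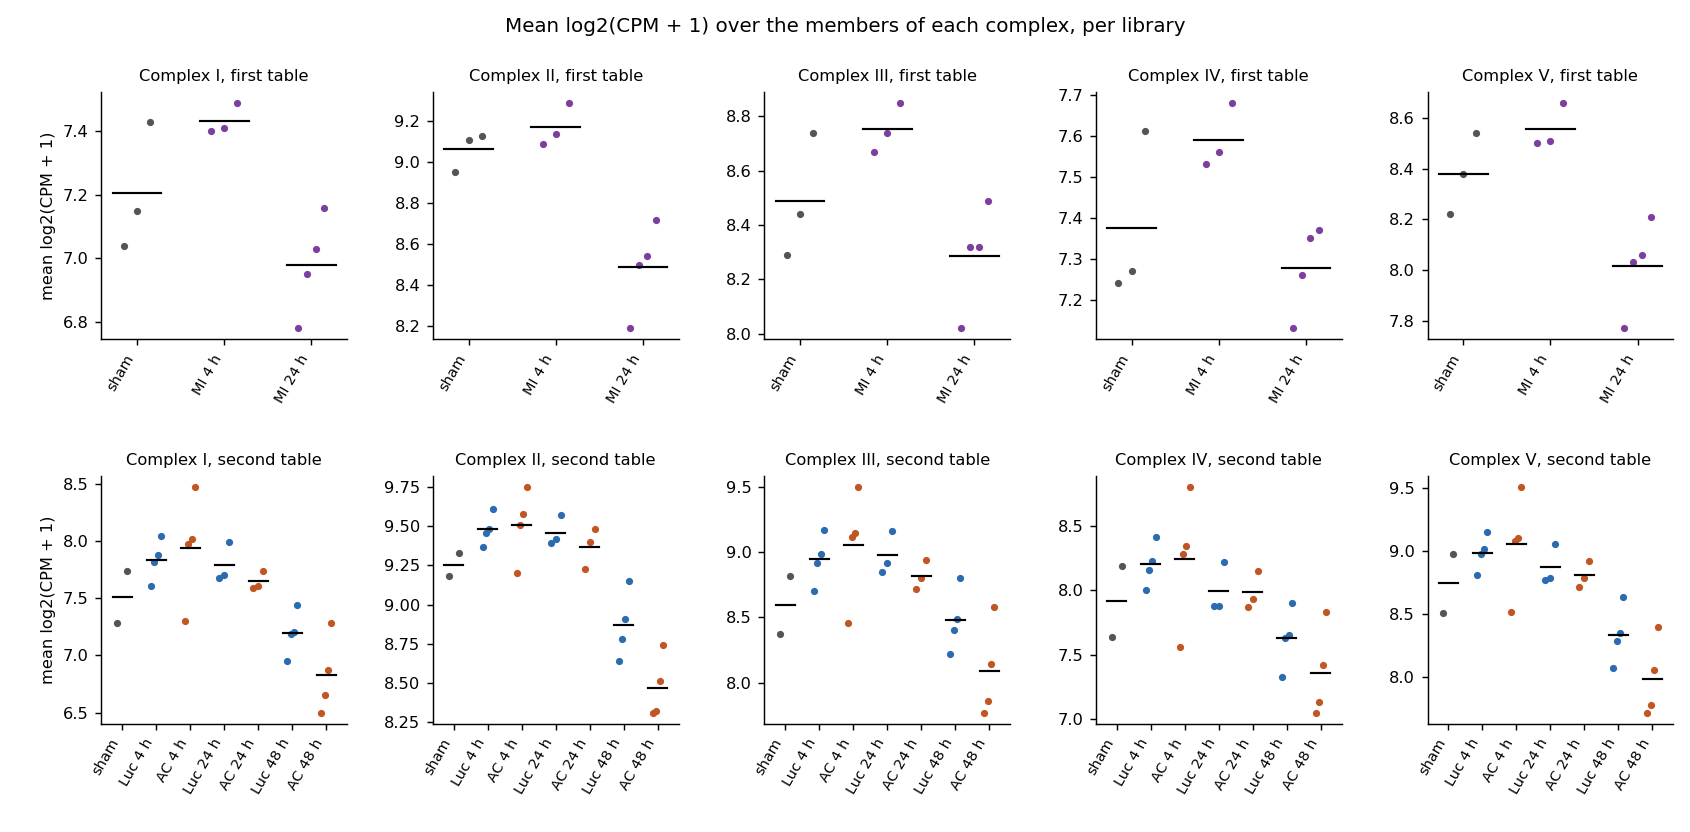
Points are libraries and bars are group means of the mean log2(CPM + 1) over the members of a complex (y axis), by group (x axis), with the first table above and the second below and a separate scale in each panel. For complex II the 4 libraries 24 h post-MI lie between 8.19 and 8.72, under all shams (8.95 to 9.13), whereas for complex IV the ranges of sham (7.24 to 7.61) and 24 h (7.13 to 7.37) overlap.

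Against 4 h, the fall at 24 h was broader. Of the 82 members 64 were called, 63 lower and 1 higher, with a median of −0.45 (0.10 over all genes tested), where 63.9% of all genes were called and 26.7% were called lower. All 20 members of the core and catalytic list (7 of complex I, Sdha to Sdhd, Uqcrc1, Uqcrfs1, Cyc1, Cox4i1, Cox5a, Cox5b, Atp5a1, Atp5b and Atp5c1) were among the 63, with log2 fold changes of −0.95 to −0.35. The name of the list is loose, since its complex IV members Cox4i1, Cox5a and Cox5b are neither core nor catalytic subunits. By complex 29 of 37, 4 of 4, 7 of 9, 8 of 15 and 15 of 17 members fell. The comparison shares its 24 h libraries with the one against sham, so the counts are not independent. It is also the test of whether the differences from sham at 4 h and at 24 h differ from each other. Within the list, Cox4i1, Ndufv2, Cox5b and Atp5b lost the call without 4 h E (q between 0.06 and 0.096), Cox5b also without 24 h C (q = 0.056) or 4 h D (q = 0.054), and Atp5b also without 4 h C (q = 0.056). With the replicate letter as a block Cox4i1, Cox5b and Atp5b lost it too (q = 0.093, 0.11 and 0.11).

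Markers of other cells moved with these differences. At 24 h 8 of the 12 cardiomyocyte markers were called lower than in shams and none higher, with a median log2 fold change of −0.67, and their summed level was 69990 to 75670 CPM in shams, 69250 to 76240 CPM at 4 h and 29810 to 48760 CPM at 24 h. Of 12 neutrophil and monocyte markers 11 were called higher, with a median of 4.06, and their summed level went from 74.8 to 134 CPM in shams to 589 to 2413 CPM at 24 h. Of 6 fibroblast and 4 endothelial markers 3 and 2 were called lower, of 5 erythrocyte markers none was called, and of 2 atrial markers tested 1 was called higher. Against 4 h, 9 of the 12 cardiomyocyte markers were called lower at 24 h (median −0.73), as were all 5 erythrocyte (−1.2), 4 of 6 fibroblast and 2 of 4 endothelial markers, whereas 11 of the 12 neutrophil and monocyte markers (3.76) and 1 atrial marker were called higher. Within the 24 h group, C was lowest and G highest for the mean over all 82 members (7.25 and 7.63 on the log2 scale). The part of these shifts in the members' values was not tested.

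The 2 members called higher at 24 h, Cox6a1 and Ndufa4l2, are each the scarcer of a pair of related genes. Several subunits of complex IV come in a form of heart and muscle and a form of other tissues. Cox6a1, the form found in most tissues, measured 47.0, 36.0 and 33.9 CPM in shams D, H and I, 46.0, 45.7 and 43.8 CPM at 4 h in C, D and E, and 51.3, 52.7, 58.0 and 50.9 CPM at 24 h in C, D, G and H, so that the 24 h libraries lay above all others (1.37 of sham, 0.45 ± 0.11, q = 0.0041). Cox6a2, the heart and muscle form, measured 703, 761 and 650 CPM in shams and 458, 597, 607 and 587 CPM at 24 h, all lower (0.80 of sham, −0.33 ± 0.13, q = 0.039). That call was lost without sham D or H, without 24 h C or H, or without any of the 4 h libraries (q between 0.052 and 0.14). It was also lost with the compared groups alone (q = 0.073) or with the replicate letter as a block (q = 0.11). With that block Cox6a1 lost its call too (q = 0.077). Ndufa4l2, a hypoxia-inducible relative of Ndufa4, measured 10.3, 10.4 and 11.3 CPM in shams, 10.4, 9.86 and 11.03 CPM at 4 h, and 23.2, 13.01, 16.7 and 18.3 CPM at 24 h, with no overlap (1.67 of sham, 0.66 ± 0.16, q = 0.0029). Ndufa4 itself had 0.03 with q = 0.88.

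In a ratio of isoforms within a library most of the scaling cancels, except through the added 1, which weighs on scarce genes. The ratio was tested over the 3 uninjected groups with an exact permutation test of F over all 4200 labelings, so that p and q stand for any difference among the groups, and the gain at 24 h against sham is given as a value that was not tested by itself. For 5 pairs the smallest p the design allows is 0.00048, and q is adjusted over the 5. The log2 ratio of Cox6a1 to Cox6a2 was −3.87, −4.36 and −4.22 in shams D, H and I, −3.79, −3.97 and −3.99 at 4 h, and −3.13, −3.48, −3.37 and −3.50 at 24 h, so the ubiquitous form gained 0.78 at 24 h against sham (among the 3 groups exact permutation p = 0.0014, q = 0.0048). Cox7a2 to Cox7a1, again the broad over the heart and muscle form, was −1.0, −0.79 and −0.92 in shams, −0.94, −0.96 and −1.02 at 4 h, and −0.49, −0.52, −0.60 and −0.56 at 24 h (gain 0.36, and among the 3 groups exact permutation p = 0.0019, q = 0.0048). These 24 h ratios did not overlap with the other groups in either pair. The other pairs also differed among the 3 groups. Cox8a to Cox8b (exact permutation p = 0.009, q = 0.015) ranged from −2.22 to −1.98 in shams, −2.35 to −2.18 at 4 h and −2.04 to −1.69 at 24 h, which overlaps with sham (gain 0.24). Ndufa4l2 to Ndufa4 (exact permutation p = 0.021, q = 0.022) ranged from −5.35 to −4.69 in shams, −5.35 to −5.28 at 4 h and −4.78 to −3.65 at 24 h, again with overlap (gain 0.63). For Cox4i2 to Cox4i1, where Cox4i2 is the hypoxia-linked form of lung, the gain was 0.45 (exact permutation p = 0.022, q = 0.022 among the groups), and 0.50 with a pseudocount of 0.1. Cox4i2 had only 3.71 to 6.31 CPM. These 3 pairs lost the call when 1 library of the 4 h group was left out, with q between 0.055 and 0.059. The Cox6a1 to Cox6a2 and Cox7a2 to Cox7a1 pairs kept it under every alternative run, with each library left out in turn or a pseudocount of 0.1. The pair Cox6b2 and Cox6b1 was not tested because Cox6b2 failed the filter.

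**Figure D3:**
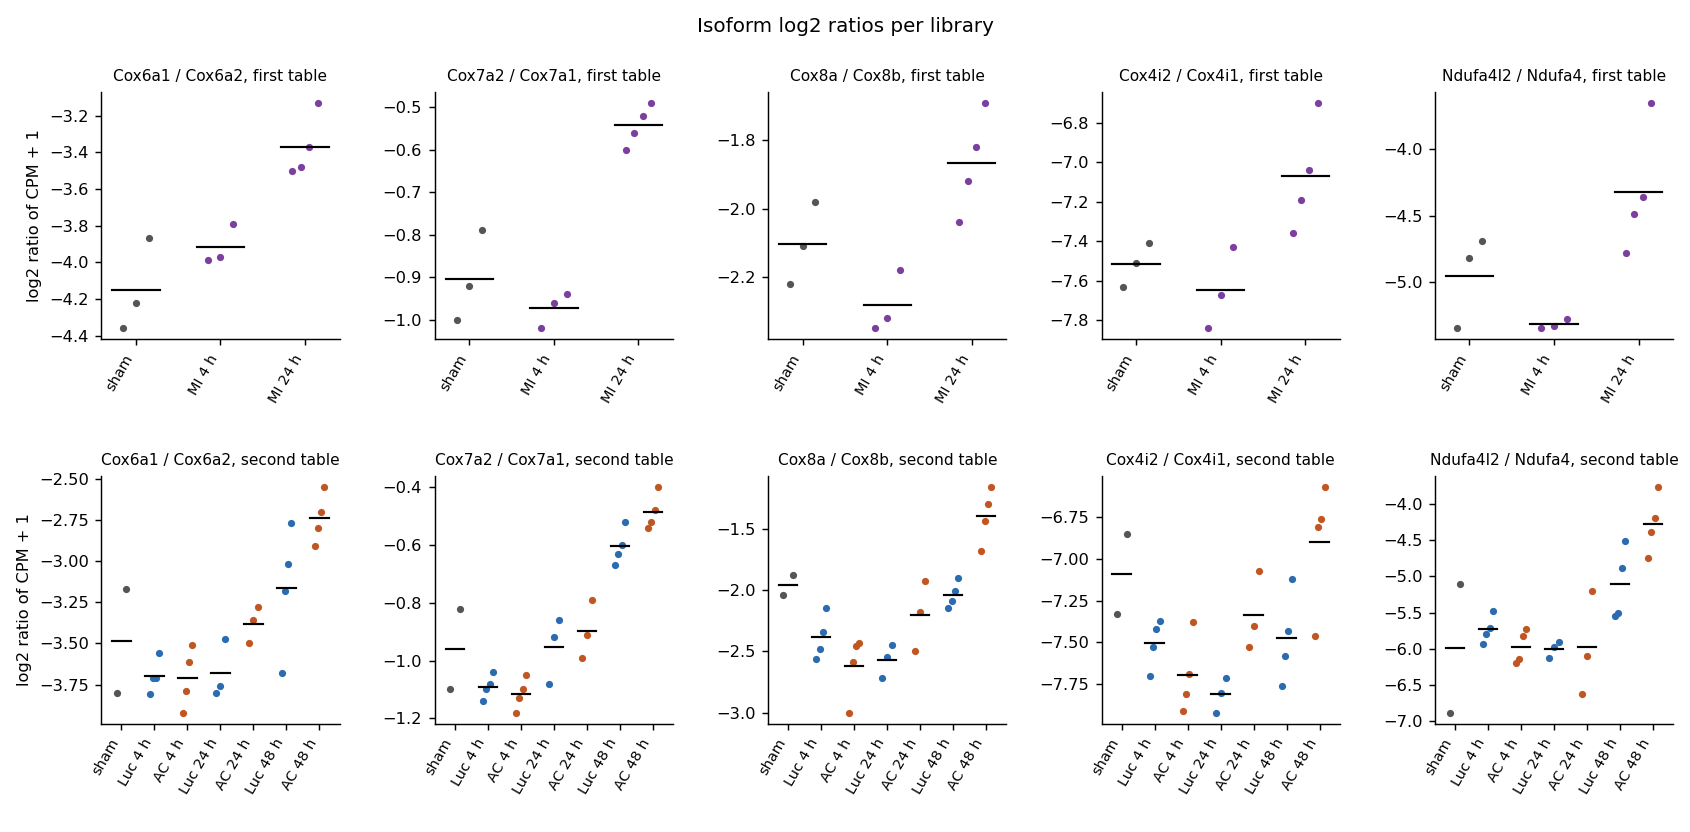
Points are libraries and bars are group means of the log2 ratio of CPM + 1 between isoforms (y axis) by group (x axis), with the first table above and the second below and a separate scale in each panel. In the first table the 4 libraries at 24 h lie between −3.50 and −3.13 for Cox6a1 over Cox6a2 and between −0.60 and −0.49 for Cox7a2 over Cox7a1, above every sham and 4 h library.

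In the second table, where ratios were not tested, the log2 ratio of Cox7a2 to Cox7a1 averaged −0.96 in the 2 shams, −1.09 ± 0.04 (SD, n = 4) in Luc hearts at 4 h, −0.96 ± 0.11 (n = 3) at 24 h and −0.60 ± 0.06 (n = 4) at 48 h. AC hearts had −1.12 ± 0.05, −0.90 ± 0.10 and −0.48 ± 0.06. The 48 h libraries of both treatments (−0.67 to −0.40) lay above all 4 h and 24 h libraries (−1.18 to −0.79) and above the shams (−1.10 and −0.82). For Cox6a1 to Cox6a2 the Luc libraries at 48 h ranged from −3.68 to −2.77 and overlapped the other times and the shams. Cox4i2 to Cox4i1 averaged −7.09 in the shams, −7.48 in Luc and −6.90 in AC hearts at 48 h. Cox8a to Cox8b averaged −1.96, −2.04 and −1.40 in the same groups, and Ndufa4l2 to Ndufa4 −6.00, −5.11 and −4.28. In Luc hearts at 48 h the Cox4i2 and Cox8a ratios thus did not lie above the sham means.

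How far a member fell went with the length of its transcript. Member transcripts chosen from GENCODE M21 ranged from 360 to 4715 nt with a median of 849.5 nt. They may not be the forms present in these hearts. Over the 82 members, Spearman's rho between length and log2 fold change was −0.57 at 24 h against sham and −0.54 at 4 h against sham, and over 12107 genes with a transcript it was −0.17 and −0.32. Both comparisons share their shams. Of the 41 shorter members 8 were called lower at 24 h and of the 41 longer members 23. Of all genes of any length 30.3% were called lower, and their shares by length are not given here. The 20 members of the core and catalytic list had a median length of 1442 nt against 709 nt for the other 62. GC content showed little relation in this table (rho 0.12 at 24 h). These are correlations across genes of the same libraries, which are not independent replicates. When the trends of each library with GC content and length were taken out of all genes, an alternative chosen after seeing the data, 62 members were called lower at 24 h and none higher, beside 34.5% of all genes called lower. The median for complex IV then was −0.36, while Cox6a1 (0.14, q = 0.15) and Ndufa4l2 (0.35, q = 0.081) were no longer called. At 4 h none was called under this alternative either, and the median over members was 0.09.

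**Figure D4:**
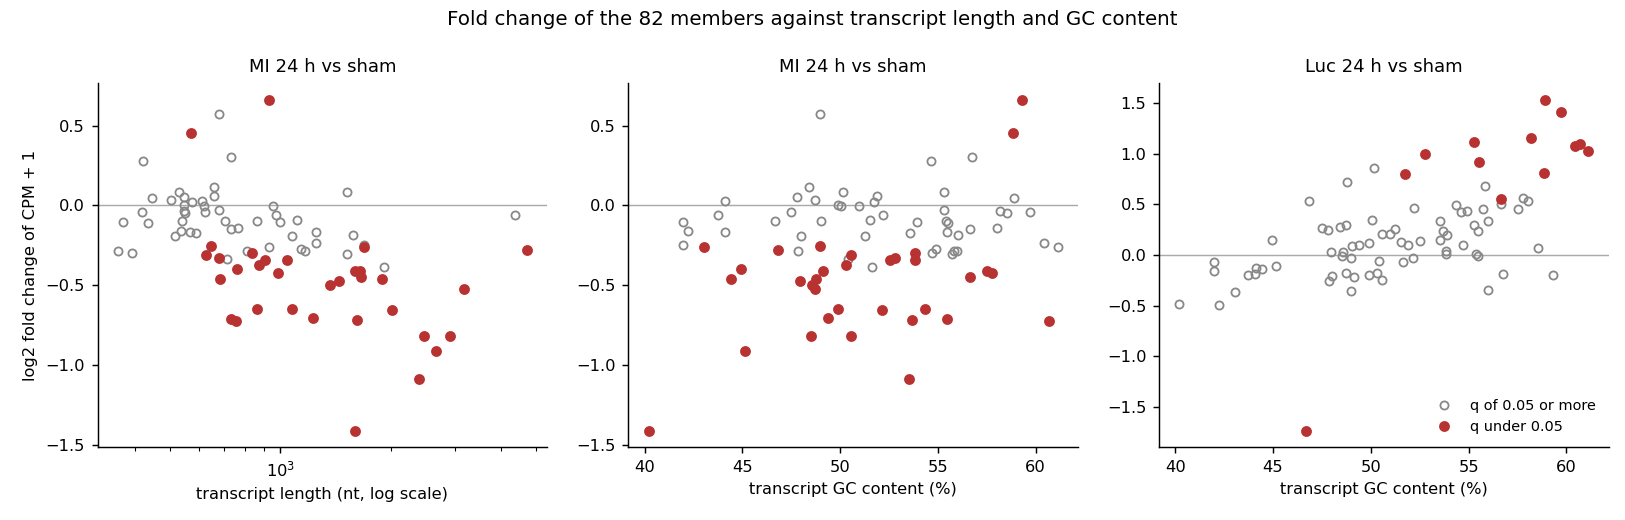
Each circle is 1 of the 82 members, with its log2 fold change of CPM + 1 against the shams of its table (y axis) over transcript length on a log scale or GC content (x axes), filled where called. In uninjected hearts at 24 h the longer transcripts lie lower (rho −0.57), and in Luc hearts at 24 h the GC-rich transcripts lie higher (rho 0.59).

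The genes that build and regulate the chain were read from lists beside the subunits. Of 52 assembly factors and other respiratory chain genes 35 were called lower and 2 higher at 24 h post-MI in uninjected hearts, with a median log2 fold change of −0.48, where 30.3% of all genes were called lower and 35.6% higher. The largest falls were those of Lyrm7 (−1.47), a complex III assembly factor, Cmc2 (−1.43), and Sdhaf4 (−1.41), an assembly factor of complex II, and those that rose were Cox19 (0.82) and Sco2 (0.66), both involved in copper delivery to complex IV. Of 10 regulators of mitochondrial biogenesis 8 were called lower and 1 higher, with a median of −0.65. The coactivators Ppargc1a and Ppargc1b fell by 2.30 (q = 7.8e-05) and 1.14 (q = 0.00061) on the log2 scale. The estrogen-related receptors followed, Esrrg with −1.86 (q = 3.1e-05) and Esrra with −0.68 (q = 0.0076). Nrf1, the factor of the site shown above, rose by 0.74 (q = 7.6e-05), and Tfam, which packages mitochondrial DNA, had −0.20 (q = 0.14). At 4 h none of either list was called.

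In the second table Luc hearts at 4 h gave no call among the members against the 2 shams, where 1.55% of all genes were called. At an unadjusted p under 0.05 there were 14 members, the lowest q was 0.096, and 75 of 82 log2 fold changes were above 0 (median 0.27, and 0.02 over all genes tested). The median rests on the shams, of which sham 2 had the lower members: for complex I it was 0.60 without sham 1 and −0.01 without sham 2. A fit of the compared groups alone called 3 members, all higher, beside 3.88% of all genes called higher. Of the 5 erythrocyte markers 2 were called higher at 4 h, with a sum of 196 and 647 CPM in the shams and 1723 to 2581 CPM in Luc hearts, and their part was not tested.

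In Luc hearts at 24 h most called members lay higher in the deposited scaling. The listed values summed to 777699, 730630 and 818456 CPM in Luc hearts A, C and D and to 628938 and 619752 CPM in shams 1 and 2. Of these sums the members took 5.47%, 5.66% and 6.16% in the Luc hearts and 7.42% and 5.71% in the shams. Of 82 members 13 were called against sham (15.9%), 12 higher and 1 lower, with a median of 0.14 (0.16 over all genes tested), where 34.1% of all genes were called and 25.3% were called higher. Uqcr11, a small subunit of complex III, measured 111 and 114 CPM in the shams and 299, 295 and 400 CPM in Luc hearts A, C and D, a rise to 2.95 of sham (1.54 ± 0.34, q = 0.0016). Ndufb7, an accessory subunit of complex I, measured 92.7 and 101 CPM in the shams and 234, 231 and 322 CPM in the Luc hearts (1.41 ± 0.34, q = 0.0033). Neither overlapped, and Luc hearts at 4 h already had 140 to 303 CPM of Uqcr11 and 142 to 271 CPM of Ndufb7. The member that fell was Cox7c, a small subunit of complex IV, with 72.1 and 33.0 CPM in the shams and 12.3, 15.3 and 14.6 CPM at 24 h (−1.74 ± 0.36, q = 0.00089). Its reads may be divided with near-identical copies, it averaged 11.8 CPM in the first table and 35.6 CPM in the second, and it lost the call without sham 1 (q = 0.066).

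Over the members, Spearman's rho between GC content and the log2 fold change was 0.59 in Luc hearts at 24 h, 0.57 at 4 h and 0.49 at 48 h, and over 12170 genes 0.42, 0.52 and 0.12. These 3 comparisons share their shams. Without sham 1, 4 members were called at 24 h, and without the library AC 4 h 2, which enters only through the shared spread, 20 were. Rescaling moved the split. Median-ratio scaling gave 8 higher and 2 lower (medians −0.06 over members and −0.01 over all genes), beside 18.3% and 16.3% of all genes. With every library scaled to an equal total 8 members were called higher and 12 lower (medians −0.17 over members and −0.11 over all genes), beside 14.6% and 19.7% of all genes. With the GC and length trends removed 11 were called higher and 12 lower, beside 18.1% and 16.3%. Under the deposited, median-ratio and equal-total scalings the median of the members lay just under that of all genes.

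At 48 h 20 of 82 members were called lower in Luc hearts and none higher (24.4%, median −0.39 and −0.03 over all genes), where 30.1% of all genes were called and 16.4% were called lower. Complex V had 6 of 17 lower, complex I 9 of 37, complex II 2 of 4, complex III 1 of 9 and complex IV 2 of 15. Ndufa10, an accessory subunit of complex I, measured 571 and 469 CPM in the shams, 582, 499, 510.5 and 507 CPM at 4 h, 476.5, 479 and 567 CPM at 24 h, and 322, 257, 273 and 224 CPM in the 48 h libraries 1, 2, 3 and 4. Only the 48 h libraries lay under the shams, and the mean was 0.52 of sham (−0.95 ± 0.17, q = 0.00032). Ndufs1 measured 751 and 687 CPM in the shams and 523, 356, 418 and 361 CPM at 48 h, also with no overlap (−0.81 ± 0.15, q = 0.00037). Atp5b fell to 0.58 of sham (q = 0.00069) and Sdha to 0.65 (q = 0.0014). The largest fold change among called members was that of Ndufa5 (−1.02, q = 0.0081), whose shams lay at 487 and 280 CPM and whose 48 h libraries lay at 234, 189, 176 and 140 CPM, and without sham 1 it had −0.62 with q = 0.22. Ndufb2, at −0.96, behaved likewise (q = 0.43 without sham 1). Without sham 1 5 members in all were called, without Luc 48 h replicate 4 there were 11, and a fit of the sham and 48 h libraries alone called 5, 4 of them lower (5.02% of all genes were lower in that fit). With the GC and length trends removed 34 were called lower and 6 higher, beside 18.1% and 19.1% of all genes, and with equal totals 15 lower and 6 higher, beside 10.2% and 19.9%.

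Set beside the first table, with which it shares no library, 14 members were called lower both in Luc hearts at 48 h and in uninjected hearts at 24 h. They were 45.2% of the 31 lower members of the first table and 70% of the 20 of the second. Among them were Ndufa5, Ndufa9, Ndufa10, Ndufs1, Ndufs3 and Ndufs4 of complex I, Sdha and Sdhc of complex II, Uqcrc2 of complex III, Cox5a of complex IV (q = 0.046 in the first table, lost without sham D or H, 24 h C, D or H or any 4 h library, with q between 0.059 and 0.18), and Atp5a1, Atp5h and Atp5s of complex V. Cox5a also lost the first-table call with no filter (q = 0.052), the compared groups alone (q = 0.091) or the replicate block (q = 0.1). The sign was shared by 65 of 82 members, but 67 lay under 0 in uninjected hearts at 24 h and 66 in Luc hearts at 48 h. With most members under 0 in both, many signs and some lower calls are shared without any relation member by member. Spearman's rho of the log2 fold changes was 0.29. The same overlap over all genes was not taken. For Luc hearts at 24 h the sign was shared by 31 of 82, no lower member was shared, and Cox6a1 was called higher in both. There rho was 0.10. Ndufa4l2, called higher in uninjected hearts at 24 h, measured 6.19 and 9.96 CPM in the second shams, 14.3, 11.1, 9.44 and 10.4 CPM in Luc hearts at 4 h, 7.08, 5.44 and 7.95 CPM at 24 h and 12.4, 10.1, 14.5 and 13.1 CPM at 48 h in libraries 1, 2, 3 and 4.

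Between times, Luc hearts at 24 h differed from those at 4 h in 3 members, all lower (Cox7c, Ndufa4l2 and Atp5s), where 32.3% of all genes were called and 7.8% were called lower. Ndufa4l2 lost this call without Luc 4 h 1, 2 or 4 or Luc 24 h A or C (q between 0.051 and 0.15), and Atp5s without Luc 24 h A (q = 0.065). Under the equal-total scaling 15 were called, all lower, and with the GC and length trends removed or with the compared groups alone 14 lower and 1 higher, beside 14.6%, 18.3% and 13.6% of all genes called lower. From 24 h to 48 h 46 members were called, 44 lower and 2 higher, with a median of −0.60 (−0.25 over all genes), where 41.9% of all genes were called and 32.6% were called lower. Ndufa13, an accessory subunit of complex I, measured 304.3, 303.9 and 394 CPM at 24 h in libraries A, C and D and 186, 149, 169.8 and 171 CPM at 48 h in libraries 1, 2, 3 and 4 (−0.97 ± 0.21, q = 0.0013), which is 0.51 of its 24 h level with no overlap. Those that rose were Cox7c (1.58) and Ndufa4l2 (0.79, q = 0.009, and 0.054 without Luc 24 h C). This count depended on scaling as well, with 11 lower and 2 higher under median-ratio scaling and 7 lower and 2 higher under equal-total scaling (all-gene medians −0.03 and 0.18, with 16.6% and 7.5% of all genes lower), and on the library Luc 24 h D, without which it was 17. It was 28 without Luc 48 h 4. The titles of the shams and the 4 h libraries share 1 series of S numbers, those at 48 h carry numbers of the same range again, and those at 24 h carry none. The titles at 24 h, and only these, hold the letters Br. What the numbers and letters stand for is not given. A run effect, or whatever Br marks, therefore cannot be told apart from time.

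The cardiomyocyte markers of the second table summed to 76800 and 77920 CPM in the shams, 78260 to 91490 CPM in Luc hearts at 4 h, 88970 to 109000 CPM at 24 h and 48640 to 65510 CPM at 48 h. At 24 h 2 of the 12 were called higher and 1 lower against sham, and at 48 h 3 were called lower. The neutrophil and monocyte markers summed to 92.2 and 175 CPM in the shams, 122 to 186 CPM at 24 h and 313 to 635 CPM at 48 h, and against sham 7 of the 12 were called higher at 24 h (median 1.22) and 10 at 48 h (2.66). From 24 h to 48 h in Luc hearts 11 of the 12 cardiomyocyte markers and all 5 erythrocyte markers were called lower (medians −0.70 and −1.53) and 8 of the 12 neutrophil and monocyte markers higher (1.26). Of 4 atrial markers all were called higher at 24 h and 3 at 48 h, and of 6 fibroblast markers 3 were called higher at each time. The part of these shifts in the members' values was not tested. Of 51 assembly factors and other chain genes tested 10 were called lower and 3 higher at 24 h, where 8.79% of all genes were lower and 25.3% higher, and 25 lower and 1 higher at 48 h (median −0.56), where 16.4% were lower and 13.7% higher. Of the 10 regulators Tfam (−0.74, q = 0.0012), Tfb1m (−1.28, q = 0.0042) and Tfb2m (−0.67, q = 0.002), which serve mitochondrial DNA and its transcription, were called lower at 48 h and none higher, and Ppargc1a had −0.34 (q = 0.35).

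To see whether AC modRNA altered the chain, AC hearts were compared with Luc hearts at each time. At 4 h and at 24 h no member was called by limma, no member had an unadjusted p under 0.05, and 0.00796% of all genes (1 gene) were called in each. The medians over members were 0.08 and −0.08. At 24 h the members' log2 fold changes went with GC content (rho −0.51, and −0.38 over 12170 genes). At 48 h 8 of 82 members were called, all lower (9.76%), with a median of −0.37 against 0.14 over all genes tested and 78 of 82 log2 fold changes under 0. Of all genes 15.3% were called and 3.27% were called lower. Among the 8 were Ndufs1, Ndufv1 and Ndufa10 of complex I, Sdha of complex II, Uqcrc2 of complex III and Atp5a1 and Atp5b of complex V, and none was of complex IV.

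Atp5a1 measured 3862, 2508, 3258 and 2419 CPM in Luc hearts 1, 2, 3 and 4 at 48 h and 2085, 2017, 1956 and 2123 CPM in AC hearts 1, 2, 4 and 5, a fall to 0.68 of Luc (−0.53 ± 0.14, q = 0.012). The AC libraries lay close together and under every Luc library. Sdha measured 971, 701, 805 and 697 CPM in Luc hearts and 518, 564, 589 and 580 CPM in AC hearts, with no overlap (−0.48 ± 0.11, q = 0.0064). Ndufv1 measured 517, 355, 418.5 and 377 CPM in Luc hearts and 307, 307, 273 and 306 CPM in AC hearts (−0.47 ± 0.14, q = 0.024). Of these 7, Uqcrc2 alone overlapped between the treatments (554 to 945.5 CPM in Luc and 460 to 641 CPM in AC hearts, q = 0.039). Among the Luc libraries replicate 1 was the highest for all 7.

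These calls rested on the other groups of the model. A fit of the AC and Luc libraries at 48 h alone called none of the 8, nor did a fit with the replicate number as a block. Leaving out a single library moved the count between 1 and 20, with 1 without Luc 48 h replicate 3, 2 without Luc 48 h replicate 1, 3 without AC 48 h replicate 2 or 4, 5 without AC 48 h replicate 5, 15 without AC 4 h replicate 2, 16 without Luc 48 h replicate 4 and 20 without AC 48 h replicate 1. With the GC and length trends removed 69 members were called, all lower, beside 10% of all genes lower, and with array weights 22, all lower, beside 4.18%. The difference of the AC effects between times was tested directly, and no member was called between 24 h and 4 h (0.00796% of all genes), between 48 h and 4 h (3.35%) or between 48 h and 24 h (2.56%), with 1, 15 and 3 members at an unadjusted p under 0.05 and a lowest q of 0.12. With the GC and length trends removed 41 members were called lower between 48 h and 4 h and 19 between 48 h and 24 h, beside 3.75% and 2.31% of all genes. At 48 h 4 of the 12 cardiomyocyte markers were called lower in AC than in Luc hearts (median −0.52), their sum was 35560 to 44220 CPM in AC hearts, 5 of the 12 neutrophil and monocyte markers were called higher and 1 lower, and 4 of 6 fibroblast markers were called higher (median 0.93). Their part in the members' values was not tested.

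**Figure D5:**
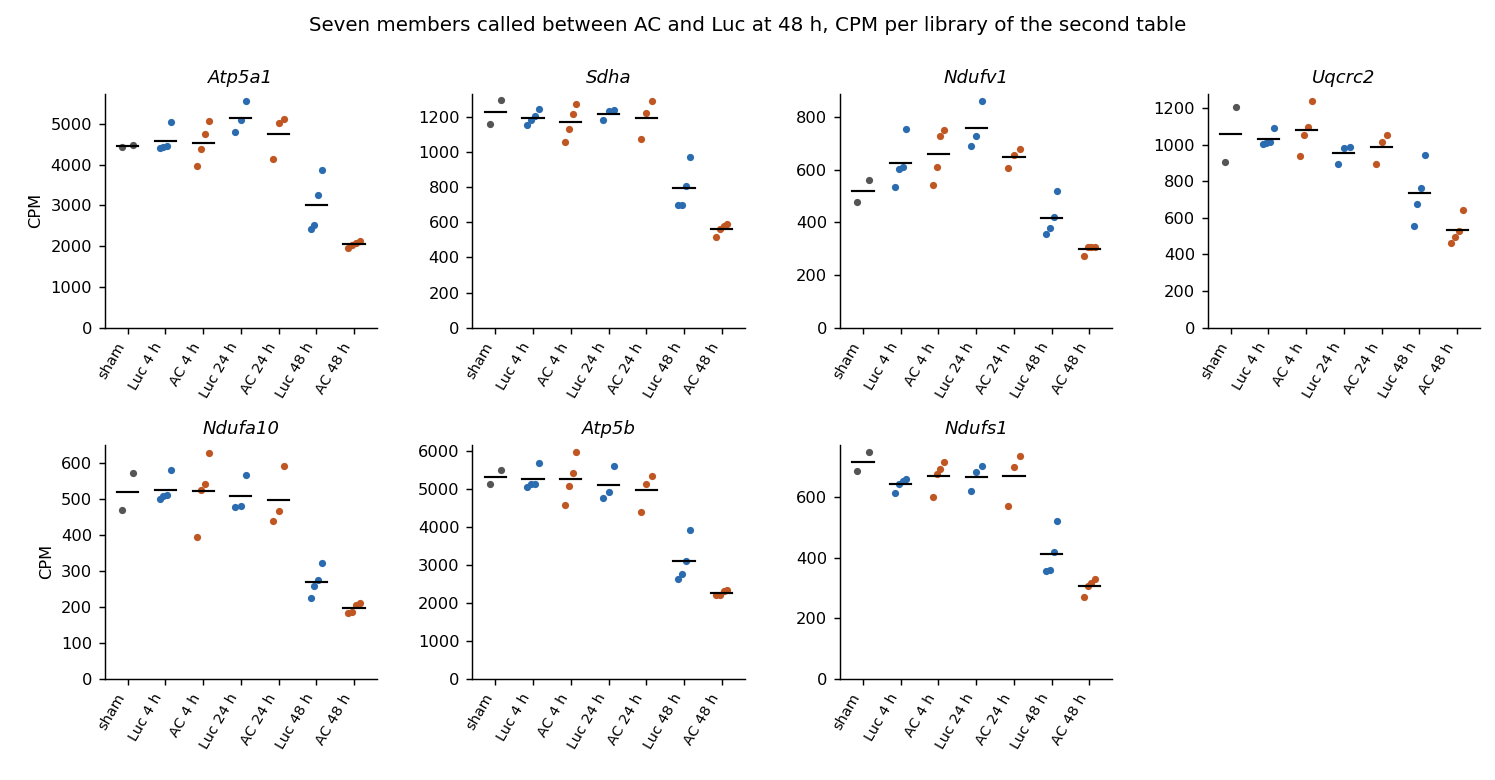
Each panel shows 1 of 7 members called between AC and Luc hearts at 48 h, with points for libraries and bars for group means of CPM (y axis, from 0) over the groups of the second table (x axis). AC libraries at 48 h sit under the Luc libraries except for Uqcrc2, for example at 1956 to 2123 CPM of Atp5a1 against 2419 to 3862 CPM, while AC and Luc overlap at 4 h for all 7 and at 24 h for all but Ndufv1.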

How the data were processed

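The deposited values are CPM. Per the paper's methods and the labels, the authors used STAR for alignment to mm10, then Partek Flow for quantification against RefSeq by expectation-maximization, where an ambiguous read is split between genes, and TMM for normalization. The methods describe the first table only. The deposited CPM of the second table carry an added 1, which was subtracted. Whether counting used strand is not given in the sources used here. Members and gene lists were chosen with earlier results of these data known. Each table got 1 limma model without covariates (limma 3.58.1, R 4.3.3, trended eBayes) over all genes averaging 1 CPM or more, on log2(CPM + 1), which understates changes of low genes. Scripts were tested on simulated data. Reads of the first table were estimated over the listed genes only, by taking the lowest value above 0 in each library as 1 read. Split reads would make this an overestimate of the reads on listed genes. Transcript length and GC content came from 1 protein-coding transcript per gene in GENCODE M21. That transcript was chosen by annotation rank, then support level, then greatest length. Named members were the isoform pairs, the core and catalytic list, in each comparison the 3 largest called increases and decreases, and members called against the direction of their complex. Others, among them members called at 48 h, were named after their values were seen. Alternatives were a pseudocount of 0.1, no filter or a mean of 10 CPM, the compared groups alone, no trend, array weights, 2 rescalings, a replicate block, leaving out each library and, added after seeing the data, the removal of GC and length trends. Some results are not reported here.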

Additional observations from a re-analysis of the deposited data

Results flagged for a closer look

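Of 235 groups of 4 libraries examined over the named members, the complex levels and the isoform ratios, 12 held a library far from the other 3, and chance gives about 1 such group in 20. In Luc hearts at 4 h, replicate 1 was highest for Atp5a1 (5042 CPM), Atp5b (5688 CPM), Cox5a (713 CPM), Ndufa10 (582 CPM) and Ndufa5 (444 CPM), and replicate 3 was lowest for Ndufa4 (550 CPM). In uninjected hearts 24 h post-MI, replicate C was lowest for Cox5a (300 CPM), Cox6a2 (458 CPM) and Ndufa4 (304 CPM). In the AC groups, replicate 2 was lowest for Ndufa13 at 4 h (176 CPM) and highest for Ndufs5 at 48 h (2.58 CPM), and replicate 4 was lowest for Ndufv1 at 48 h (273 CPM).

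The difference from sham differed between times, by the direct limma contrast of the times, for 64 members between 24 h and 4 h post-MI in uninjected hearts, for 3 members between Luc hearts at 24 h and 4 h, and for 46 members between Luc hearts at 48 h and 24 h.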

How the results depend on the processing

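Of 1854 values of named members under an alternative, 1706 stayed called in the same direction or stayed uncalled. A further 98 kept direction and lost the call, and 50 gained it. No value called in either fit changed direction, while changes of direction among uncalled values were not counted. The causes of the changes below were not tested.

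With array weights 30 members were called at 4 h uninjected, 11 between Luc 24 h and 4 h, 22 between AC and Luc at 48 h and 12 in the differences of AC effects, where calls are summed over the 3 differences here and below. Without a filter 5 were called between AC and Luc at 48 h. The compared groups alone gave 3 calls for Luc 4 h, 5 for Luc 48 h, 15 between Luc 24 h and 4 h and 0 between AC and Luc at 48 h.

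Median-ratio scaling gave 5 calls between Luc 24 h and 4 h, 13 between Luc 48 h and 24 h, 18 between AC and Luc at 48 h and 6 in the AC differences, and complex II medians of 0.0021 (Luc 24 h against sham) and −0.38 (Luc 48 h against 24 h). Equal-total scaling gave 20, 15, 9, 15 and 2 calls for Luc 24 h against sham, Luc 24 h against 4 h, Luc 48 h against 24 h, AC against Luc at 48 h and the AC differences. Its medians for complexes I, II, III and V were −0.17, −0.11, 0.14 and −0.11 in Luc 24 h against sham, −0.23 for complex II in Luc 24 h against 4 h, and −0.17, −0.14, −0.073, 0.025 and −0.15 for complexes I to V in Luc 48 h against 24 h. The median of all genes in that contrast went from −0.25 to 0.18, and in Luc 24 h against sham from 0.16 to −0.11.

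With the GC and length trends removed 62 members were called at 24 h uninjected, 1, 23 and 40 in Luc 4 h, 24 h and 48 h against sham, 15 between Luc 24 h and 4 h, 69 between AC and Luc at 48 h and 60 in the AC differences. The uninjected medians were 0.093 (complex IV, 4 h) and −0.41, −0.44, −0.36 and −0.51 (complexes I, III, IV and V, 24 h). Those of Luc 24 h against sham were 0.033 (III) and −0.11 (V), and of Luc 48 h against 24 h −0.30, −0.32, −0.18 and −0.27 (I, II, III and V).

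Leaving out each library in turn moved the counts from 0 to 1 (4 h uninjected), 20 to 41 (24 h uninjected), 43 to 71 (24 h against 4 h), 0 to 3, 4 to 20 and 5 to 26 (Luc 4 h, 24 h and 48 h against sham), 1 to 4 (Luc 24 h against 4 h), 17 to 55 (Luc 48 h against 24 h), 1 to 20 (AC against Luc at 48 h) and 0 to 2 (AC differences). The medians moved from −0.00781 to 0.60, 0.11 to 0.39 and −0.069 to 0.45 in complexes I, II and V (Luc 4 h), −0.19 to 0.43 and −0.25 to 0.26 in IV and V (Luc 24 h), and −0.70 to −0.12, −0.70 to −0.0012 and −0.84 to −0.21 in I, IV and V (Luc 48 h). The 24 h gains ranged from 0.32 to 0.54 (Cox4i2), 0.18 to 0.30 (Cox8a) and 0.41 to 0.79 (Ndufa4l2).

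Whether the replicate letters or numbers pair samples is not given. Same-numbered samples deviated together with correlations from −0.21 to 0.43, and differently numbered ones with −0.48 to 0.54. These wide ranges cannot decide it. With the replicate block 27 members were called at 24 h uninjected, 44 at 24 h against 4 h, and 0 in each of MI 4 h, Luc 4 h against sham, AC against Luc at 4 h, 24 h and 48 h and the AC differences. The contrasts of Luc 24 h and 48 h with sham and between Luc times could not be fitted with it, because a number was taken as a block within its own time only.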
